A study of Mus musculus with 15 samples.

Results

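Ribosome-bound mRNA was compared between early 2-cell mouse embryos from mothers lacking Eif4e1b (KO) and from heterozygous mothers (Het). The comparison used the 5 early 2-cell libraries of a series of 15 that also covers M2 eggs and PN5 zygotes, and the members were chosen by stage and donor genotype in the labels. The 3 Het libraries came from B6D2F1 females labelled Eif4e1b Het and Rpl22 HA, and the 2 KO libraries from B6D2F1 females labelled Eif4e1b KO and Rpl22 HA. All donors of both groups therefore carried an HA tag on Rpl22 (a large-subunit ribosomal protein), through which ribosomes were pulled down, and no untagged or wild-type group was among the samples. The genotype in the labels is that of the female donor. About 100 embryos were pooled for each library, so a library is a pool and not an embryo, and fewer ribosomes on an mRNA and fewer copies of the mRNA cannot be told apart. Nothing in the labels ties a library to its own females or collection, so the p-values rest on a spread between these samples that may be technical.

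eIF4E1b, the protein of Eif4e1b, is a relative of the cap-binding initiation factor eIF4E that is made in the egg. The initiation factor eIF4E binds the cap of an mRNA and brings it to the ribosome. At the early 2-cell stage the mouse embryo is passing from stored maternal mRNAs to the transcription of its own genome, and which maternal mRNAs are held by ribosomes sets what proteins are made meanwhile. In ribosome profiling, RNase digests the RNA that ribosomes do not cover, and the protected fragments are sequenced and counted by gene.

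Very little of each library was mRNA. Rows for ribosomal RNA and mitochondrial RNA took 94.4% to 98.2% of the counts of the 5 libraries and were dropped before scaling. Protein-coding genes then had 1059, 1653 and 7793 counts in Het replicates 1 to 3 and 1619 and 1135 counts in KO replicates 1 and 2. Het replicate 3 alone held 74.2% of the 10505 Het counts, while the KO libraries together held 2754. Levels are given as a gene's share of the protein-coding counts of its library, which is not corrected for gene length. A gene with 0 counts was read as below 3 counts, which is 0.283%, 0.181% and 0.0385% in the Het libraries and 0.185% and 0.264% in the KO libraries. These limits hold for counting error alone, because reads amplified by PCR carried no molecular identifiers and need not stand for separate molecules.

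The targeted gene could not check the genotype labels. Eif4e1b (ENSMUSG00000074895) had 0 counts in all 15 libraries, Het libraries included. Rpl22, the tagged gene, was also at 0.

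The markers of the stage and of other cells were sparse. Of 49 genes known to be switched on at the 2-cell stage, 4 had counts, 26 in all, and the Zscan4 genes that define this burst were at 0. Their summed share was 0.0944%, 0% and 0.180% in Het and 0.432% and 0.352% in KO, so the groups did not overlap. The counts behind this were few. Kdm5b, a histone demethylase, had 1, 0 and 7 counts in Het against 1 and 4 in KO, and Nelfa, a subunit of the pausing factor NELF, had 0, 0 and 2 against 6 and 0. Of 55 zona pellucida and oocyte genes, 8 had counts, and all 47 counts lay in Het replicate 3, led by the oocyte growth factors Gdf9 with 11 and Bmp15 with 8. Maternal-effect genes, whose products the embryo inherits from the egg, took 0.850%, 0% and 1.26% in Het and 0.741% and 0.352% in KO. Cumulus and granulosa markers had 9 counts in all, with the follicle marker Cyp11a1 at 0, and blood and sperm markers had 2, both in Het replicate 3. The stage could thus be checked with few counts, and the part of egg RNA or carried-over cells in any difference below was not tested.

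Most mRNAs were seen in few libraries, and of the 12 with the highest mean shares 8 overlapped between the genotypes. Of 21413 protein-coding genes in the table, 1230 had a count in at least 1 of the 5 libraries, 815 of these in exactly 1 library and 62 in all 5. Together the 62 made up 30.4% to 41.9% of a library's protein-coding counts. By mean share 36 of the 62 were higher in KO and 26 lower, and 45 differed by less than 2-fold between the group means. The libraries of the groups did not overlap for 5 of them in the higher direction and 7 in the lower. Among all 1230 genes, 48 (3.9%) were higher in every KO library than in any Het library and 21 (1.71%) lower. Lower in this sense needs a count in every Het library, and higher needs a count in every KO library. With fewer KO than Het libraries the directions are not comparable, and 48 against 21 does not show an excess of higher genes.

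Ncl encodes nucleolin, an abundant nucleolar protein that acts in the making of ribosomes. It took 5.67%, 2.54% and 1.42% of the protein-coding counts in Het and 2.78% and 6.34% in KO, and the groups overlapped. Its log2 fold change, KO over Het, was 0.46 (SE 0.82, edgeR adjusted p = 1), with a 95% interval from -1.27 to 2.20. Eif5b encodes the GTPase that joins the ribosomal subunits at the end of initiation. Its share was 3.68%, 2.18% and 1.59% in Het and 2.84% and 3.70% in KO, again with overlap (log2 fold change 0.27, SE 0.80). The intervals of both genes leave room for a change of more than 2-fold in either direction.

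Nexn, which encodes the actin filament protein nexilin, was the 1 gene of the 12 with the highest mean shares that lay higher in every KO library. It had 24, 33 and 5 counts in Het and 48 and 56 in KO, or 2.27%, 2.00% and 0.0642% against 2.96% and 4.93%. The log2 fold change was 1.43 (SE 1.02, edgeR adjusted p = 0.886), and 0.84 without Het replicate 3, the library with the lowest share.

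Gigyf2 and Incenp lay lower in both KO libraries than in any Het library. Gigyf2 encodes a translational repressor that works through the cap-binding protein 4EHP. It took 2.64%, 3.33% and 1.31% in Het and 1.30% and 1.15% in KO, so that the gap between Het replicate 3 and KO replicate 1 was smaller than the worth of 1 count in that KO library (0.0618%). Its log2 fold change was -1.18 (SE 1.01, edgeR adjusted p = 0.888). Incenp encodes the scaffold of the chromosomal passenger complex, which steers chromosome attachment and cytokinesis. It took 1.89%, 0.786% and 3.46% in Het and 0.494% and 0.617% in KO (log2 fold change -2.23, SE 1.56), with 270 of its Het counts in replicate 3. Without that library the log2 fold change was -1.22.

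The other leading mRNAs had overlapping libraries. They were Cntln for a centrosome protein, Atad2 for a bromodomain ATPase, Metap2 for a methionine aminopeptidase, Rbm25 for a splicing regulator, Ythdc1 for a nuclear reader of methylated adenosine in RNA, and Anp32b for a histone chaperone. Rbm25 and Ythdc1 were highest in Het replicate 3 at 2.32% and 2.64%, and their log2 fold changes of -0.37 and -1.16 turned to 1.04 and 0.39 without it. Anp32b had 32 counts in Het replicate 2, 32 in KO replicate 2 and 0 in each of the other 3 libraries, so that its level followed single libraries and not the genotype.

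**Figure D1:**
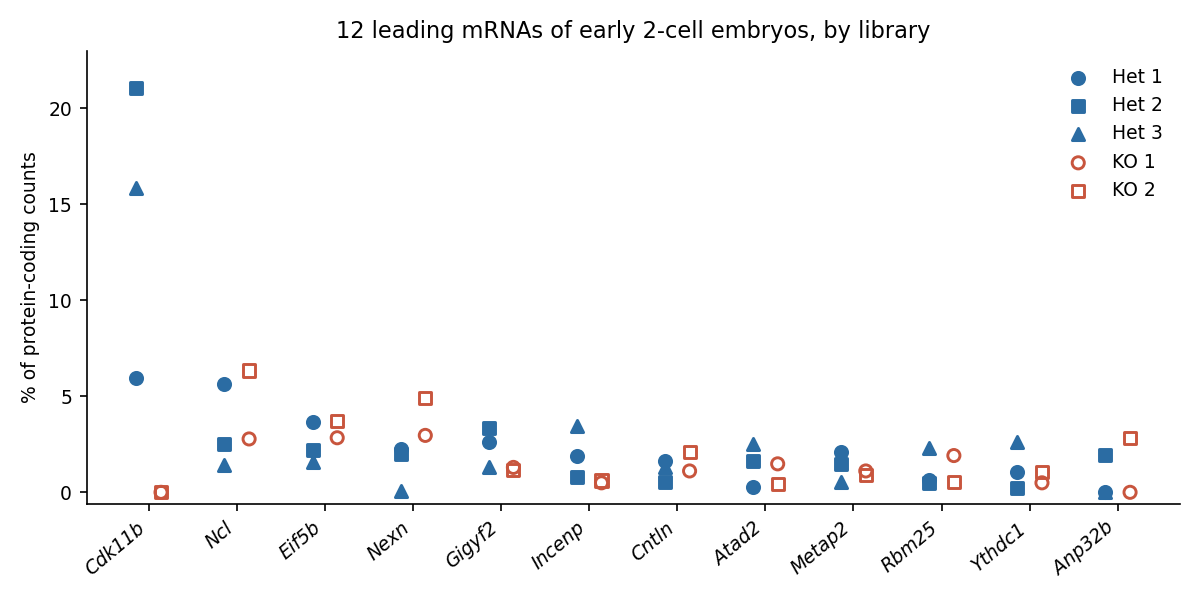
Share of protein-coding counts (y axis, %) of the 12 mRNAs with the highest mean share, 1 point for each library, filled blue for the 3 Het and open red for the 2 KO libraries. Cdk11b stands at 5.95% to 21.1% in Het and at 0 in KO, while the points of 8 of the 12 genes overlap between genotypes.

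Cdk11b gave the widest gap between the genotypes. It encodes a cyclin-dependent kinase of the nucleus that acts on RNA polymerase II transcription and pre-mRNA splicing (ENSMUSG00000029062, GRCm38 chromosome 4, 155624841 to 155649935). It had 63, 348 and 1236 counts in Het replicates 1 to 3 and 0 counts in both KO libraries. As shares these were 5.95%, 21.1% and 15.9%, a mean of 14.3 ± 7.67% (SD, n = 3), against 0 in KO (n = 2). The KO libraries were at least 131-fold lower against a floor of 3 counts over that group. The share in each Het library exceeded the limit that 0 counts set in either KO library, 0.185% and 0.264%, for counting error alone.

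The difference in Cdk11b did not pass the test across all genes, with a log2 fold change of -13.09 (SE 3.80, unadjusted p = 0.00368, adjusted p = 0.809 by edgeR). With KO at 0 this fitted value and those below depend on the prior count and are no bounds. With 3 libraries against 2, the exact permutation test of its share gave p = 0.2, where 0.1 is the smallest value the design allows. DESeq2 on the same genes and libraries called it (log2 fold change -10.73, adjusted p = 0.00650), as did edgeR without a filter on low counts (adjusted p = 0.00196) and edgeR on the early 2-cell libraries alone (adjusted p = 0.00979).

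Cdk11b was also missing from libraries of other stages and of either genotype. In M2 eggs its share was 1.34% and 1.59% in Het and 0% and 1.20% in KO. In PN5 zygotes it was 0.834%, 2.29% and 0% in Het and 1.42%, 0.822% and 1.92% in KO. A library without a single Cdk11b count thus occurred among Het zygotes too, where the other Het zygote libraries had 308 and 761 counts. The early 2-cell Het libraries stood above all libraries of the earlier stages. The KO effect at the early 2-cell stage differed from that in zygotes by -13.26 on the log2 scale (unadjusted p = 0.00543, adjusted p = 0.739 by edgeR) and from that in eggs by -11.80 (adjusted p = 1). The difference from zygotes passed without the low-count filter. Genes related to Cdk11b in sequence can share reads, and how such reads were counted is not stated in the sources.

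**Figure D2:**
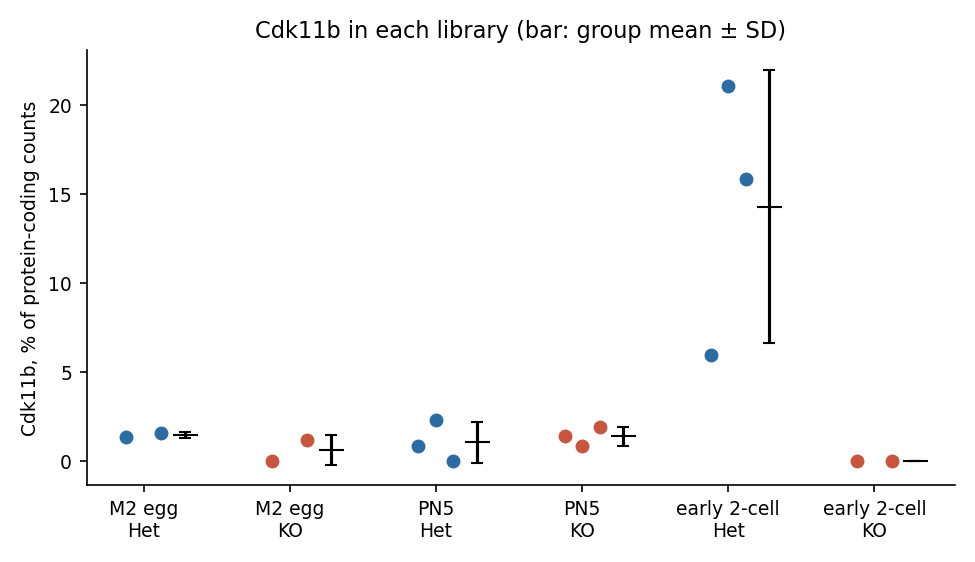
Cdk11b as a share of protein-coding counts (y axis, %) in each of the 15 libraries by stage and donor genotype, with the group mean and SD beside the points (blue Het, red KO). Both early 2-cell KO libraries, 1 M2 KO library and 1 PN5 Het library are at 0, and the 3 early 2-cell Het libraries lie above all others.

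Across genes, the test called none between KO and Het. In 1 edgeR quasi-likelihood fit over all 15 libraries, 0 of 533 genes (0%) passed an adjusted p under 0.05, and the smallest adjusted p was 0.809. At an unadjusted p under 0.05, 21 genes (3.94%) were higher and 7 (1.31%) lower in KO, together 28 (5.25%). DESeq2 called 3 genes, which were Cdk11b, Hmgn5 and Nasp, and had 14 higher and 18 lower at the unadjusted threshold. By limma-voom 0 genes were called, with 10 higher and 2 lower at that threshold. Without Het replicate 3 the edgeR counts at the unadjusted threshold were 6 higher and 6 lower. Without KO replicate 1 they were 8 and 1, over 960 genes tested. Of the 457 protein-coding genes tested, 172 had a positive and 177 a negative log2 fold change. The rest had a log2 fold change of 0, which held the median at 0. The filter ran over all 15 libraries, so genes without a count at the early 2-cell stage could be tested. Among chromatin remodellers, for example, 21 were tested and 20 had a count in the 5 libraries. Such genes overlap by necessity, so they lower the shares without overlap given below and draw list medians toward 0. In the fit of the 297 genes with at least 10 counts in the early 2-cell libraries the median was -1.52. The libraries of the groups did not overlap for 34 of the 457 protein-coding genes (7.44%) in the higher direction and 17 (3.72%) in the lower. Again, lower needs counts in all 3 Het libraries and higher in the 2 KO libraries. Cdk11b, at 5.95% to 21.1% of the Het counts and 0 in KO, lowers the Het shares of all other genes. Overlap of single genes with Cdk11b left out was not tested.

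The Nasp call in DESeq2 rested on 1 library. Nasp, a chaperone of linker and core histones, had 51 counts in Het replicate 3 and 0 in the other 4 libraries. Hmgn5 encodes a nucleosome-binding protein that loosens chromatin. It had 2, 2 and 0 counts in Het and 17 and 9 in KO, or 0.189%, 0.121% and 0% against 1.05% and 0.793%, with no overlap between the groups. Its log2 fold change was 3.32 (SE 1.29, adjusted p = 0.809) by edgeR and 3.53 (adjusted p = 0.0436) by DESeq2. It lay between 2.54 and 3.65 when any 1 library was left out.

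**Figure D3:**
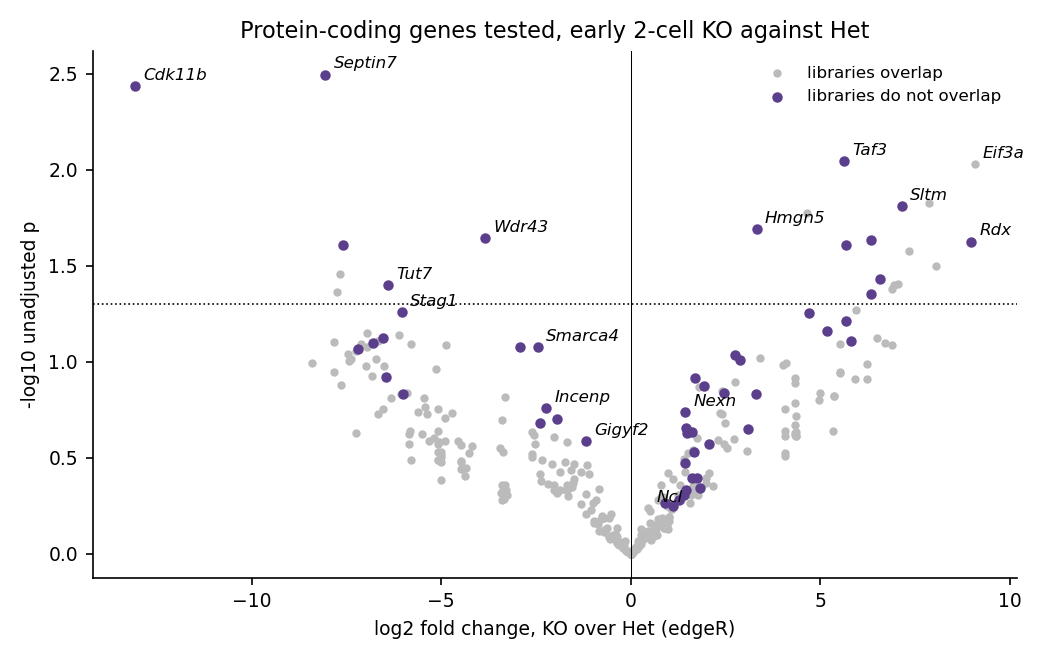
Each point is 1 of the 457 protein-coding genes tested, with the log2 fold change of KO over Het from edgeR on the x axis and -log10 of the unadjusted p on the y axis. The dotted line marks an unadjusted p of 0.05, purple points are genes whose libraries do not overlap between genotypes, and Cdk11b lies farthest to the left at -13.09.

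Of the 10 genes with the smallest p in the lower direction, 9 had no count in either KO library, and their adjusted p ran from 0.809 to 0.837 by edgeR. A fitted fold change against 0 depends on the prior count, so levels are given instead. Septin7, a GTPase of the septin filaments that act in cytokinesis, had 11, 2 and 35 counts in Het, or 1.04%, 0.121% and 0.449%, and 0 in KO, at least 4.92-fold lower over the group. Its share in Het replicate 2 lies below what 0 counts allow in either KO library. Wdr43, a component of the processome that builds the small ribosomal subunit, had 4, 31 and 32 counts in Het and 1 in each KO library. Its mean share was 0.888 ± 0.855% in Het (SD, n = 3) and 0.0749 ± 0.0186% in KO (n = 2), with a log2 fold change of -3.84 (SE 1.52, edgeR adjusted p = 0.809) and of -2.84 without Het replicate 2.

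Cohesin genes were among the others. Pds5b, a regulator of the cohesin ring, had 1, 1 and 53 counts in Het, and Stag1, a cohesin subunit, had 1, 2 and 9. Neither had a count in KO. The remodeller Chd7 had 0, 11 and 23, the nuclear receptor coactivator Ncoa2 16, 0 and 7, and Tut7, which adds uridines to RNA tails before decay, 4, 1 and 8. Wasl, an activator of actin branching, had 0, 10 and 2 counts, and the helicase Ddx24 had 0, 3 and 10. For Tut7, Stag1, Wasl and Ddx24 the Het mean was less than 2-fold above what 0 counts over the KO group allow, or below it, so for them a difference of that size was not detectable at this depth.

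Of the 10 genes with the smallest p in the higher direction, 7 had no count in any Het library, and all had an adjusted p of 0.809 by edgeR. Since Het held more counts in all, a 0 over the Het group allows less (0.0286%) than a 0 over the KO group (0.109%). Rdx, which encodes radixin, a linker of actin to the membrane, had 26 and 6 counts in KO, or 1.61% and 0.529%, and 0 in Het, at least 37.4-fold higher. In PN5 zygotes Rdx had 236, 0 and 0 counts in Het and 146, 80 and 0 in KO. Libraries without a Rdx count thus occurred in both genotypes there. Sltm, a nuclear RNA-binding protein, had 4 and 4 counts in KO and 0 in Het, at least 10.5-fold higher, with a share of 0.300 ± 0.0745% (SD, n = 2). Nek1, a kinase of cilia and DNA repair, had 4 and 1 counts, and Mia2, a protein of collagen export from the endoplasmic reticulum, had 2 and 1. At the early 2-cell stage these 4 genes were seen in both KO libraries and in no Het library. The bound over the Het group rests mostly on Het replicate 3, while 0 counts allow 0.283% in Het replicate 1. Both shares of Nek1 (0.247% and 0.0881%) and of Mia2 (0.124% and 0.0881%) lay below that limit. So did Sltm in KO replicate 1 (0.247%), while both shares of Rdx lay above it.

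Besides Hmgn5, given above, the remaining genes of that set had most or all of their KO counts in KO replicate 1. Eif3a, the largest subunit of initiation factor eIF3, had 37 counts there, the remodeller Chd2 had 16 and the ciliary gene Wdr60 had 11, each with 0 counts in the other 4 libraries. Luc7l3, a splicing-related protein, had 35 there, 0 in KO replicate 2 and 2 in Het replicate 2, and its log2 fold change turned from 4.65 to -4.18 without KO replicate 1. Taf3, the TFIID subunit that reads methylated histones, had 33 and 2 counts in KO and 0, 0 and 2 in Het. Its log2 fold change of 5.64 (SE 1.89) came to 2.91 without KO replicate 1.

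The genes were also read in 20 lists by role, which were described by counts and summed shares and not tested as lists. In every list 0 genes were called by edgeR. The summed shares of 4 lists were higher in both KO libraries than in any Het library, and those of 2 lists were lower. Of the 10 arrangements of 3 against 2 libraries, 1 separates the groups in a given direction. Without its member with the most counts, each of these lists except the cytoskeletal one overlapped. Besides the members with the most counts, members whose libraries did not overlap are named, and those, Eif4g1 and Smarca2 were chosen after their values were seen. Overlap of single members was read with Cdk11b in the totals.

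Among the lists that lay higher in KO, cytoskeletal and motor genes had the widest difference in percentage points. They took 5.85%, 6.72% and 1.87% of the protein-coding counts in Het and 9.39% and 11.1% in KO, or 4.81 ± 2.58% (SD, n = 3) against 10.2 ± 1.21% (n = 2). Of 27 members tested, 14 had a positive and 6 a negative log2 fold change, the median was 0.20 against 0 over all protein-coding genes, and 4 lay higher in every KO library (7.44% of all protein-coding genes tested did). The 4 were Nexn, Rdx, Dst and Rock2. Dst encodes dystonin, a linker between filament systems, with 1, 5 and 13 counts in Het and 16 and 4 in KO. Rock2 encodes a kinase that promotes actomyosin contraction, with 1, 2 and 0 against 4 and 2. For Dst and Rock2 the gap between Het replicate 2 and KO replicate 2 was smaller than the worth of 1 count in that KO library (0.0881%). Without Nexn the list took 3.59%, 4.72% and 1.81% in Het and 6.42% and 6.17% in KO, and the groups did not overlap. Nor did the groups overlap without Cdk11b among the counts.

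Some cytoskeletal genes overlapped between the genotypes. Lrrfip1, which binds the actin regulator Flightless, took 1.13%, 1.03% and 0.167% in Het and 0.803% and 1.50% in KO. Rock1, a related kinase, took 0.661%, 1.45% and 0.0642% against 0.803% and 1.06%. For both genes Het replicate 3 was lowest, as it was for Nexn. In the earlier stages the whole list took 16.3 ± 2.96% in Het and 15.5 ± 4.06% in KO eggs (SD, n = 2 each) and 13.4 ± 4.52% in Het and 12.03 ± 2.62% in KO zygotes (n = 3 each). Nexn itself had means of 5.80% and 5.93% in eggs and 4.32% and 4.22% in zygotes. Its KO effect at the early 2-cell stage differed from that in zygotes by 1.49 on the log2 scale (edgeR adjusted p = 1).

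Translation factors took 4.82%, 3.09% and 3.59% in Het and 6.61% and 5.29% in KO. Of 10 members tested, 5 were positive and 3 negative, with a median of 0.09, and no tested member lay higher in every KO library. Eif5b held most of the counts, and without it the shares were 1.13%, 0.907% and 2.00% in Het and 3.77% and 1.59% in KO, which overlap. Eif3a supplied 37 of the KO counts in replicate 1, while Eif4g1, the scaffold of the cap-binding complex, had 34 counts in Het replicate 3 and 0 elsewhere. Abcf1, an initiation-associated ATPase, had 0, 1 and 96 counts in Het and 3 and 2 in KO.

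Histone and DNA modifiers and coregulators took 4.82%, 4.72% and 2.43% in Het and 7.41% and 6.43% in KO. Of 28 tested, 13 were positive and 8 negative, with a median of 0. Hmgn5, Brd3 and Setd2 lay higher in every KO library and Kat6a lower, 3 and 1 of 28, beside 7.44% and 3.72% of all protein-coding genes tested. Brd3, a reader of acetylated histones, had 1, 7 and 3 counts in Het and 12 and 5 in KO. Setd2, a histone methyltransferase of transcribed genes, had 2, 0 and 12 against 10 and 3. Kat6a, an acetyltransferase, had 1, 2 and 47 against 1 and 1. For Brd3, Setd2 and Kat6a the gap between the nearest Het and KO libraries was smaller than the worth of 1 count in KO replicate 2 (0.0881%). The list was led by topoisomerase gene Top1 with 0, 18 and 0 counts in Het and 13 and 22 in KO, and without it the groups overlapped. When Het replicate 2 was left out, Top1 was at 0 in Het and edgeR called it (adjusted p = 0.0309), and it was the 1 gene called for KO against Het when any 1 library was left out.

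The list of RNA polymerase II machinery lay lower in KO through Cdk11b alone. It took 6.89%, 21.7% and 16.6% in Het and 3.09% and 0.617% in KO, and without Cdk11b 0.944%, 0.605% and 0.719% against 3.09% and 0.617%. Of 10 tested, 2 were positive and 6 negative, with a median of -2.03. Aff4, a scaffold of the super elongation complex, had 1, 2 and 17 counts in Het and 0 in KO, while Taf3 of TFIID lay higher in every KO library. The Aff4 shares in Het replicates 1 and 2 (0.0944% and 0.121%) lay below what 0 counts allow in either KO library. For Aff4 a lower level in every KO library was thus not shown. Taf7, also of TFIID, had 0, 1 and 2 counts against 1 and 1. It lay higher in KO by share only, with a gap smaller than the worth of 1 count. By shares as counted 2 members lay lower, Cdk11b and Aff4, and 2 higher, beside 3.72% and 7.44% of all protein-coding genes tested. Pluripotency factors, the other list that lay lower, had 46 counts in Het and 3 in KO, from 4 genes, at 0.189%, 0.726% and 0.411% against 0.185% and 0%. The gap between Het replicate 1 and KO replicate 1 was smaller than the worth of 1 count, and without Rif1, a member with 2, 0 and 16 counts against 3 and 0, the groups overlapped. Sox2 had 12 counts, all in Het replicate 2, and Dppa4 had 13, all in Het replicate 3.

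Cell cycle, spindle and cohesin genes took 5.67%, 2.54% and 8.29% in Het and 3.21% and 3.35% in KO, with overlap at Het replicate 2. Of 22 tested, 6 were positive and 11 negative, with a median of -0.58. By shares as counted, Incenp, Pds5b, Septin7 and Stag1 lay lower in every KO library and the centrosomal anchor Akap9 higher. Over all protein-coding genes tested 3.72% were lower in this way and 7.44% higher. Pds5b, Septin7 and Stag1 had 0 counts in KO. At least 1 Het share of each lay below what 0 counts allow in either KO library. For them a lower level in every KO library was thus not shown. Kif20b, a kinesin of cytokinesis, had 2, 0 and 105 counts in Het and 8 and 0 in KO. Anln, which encodes the cleavage furrow protein anillin, had 5, 2 and 57 against 2 and 3. Het replicate 3, with its 74.2% of all Het counts, held the most counts of each of these members except Akap9.

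Nucleolar and ribosome biogenesis genes overlapped, at 7.84%, 5.93% and 6.33% in Het and 7.60% and 7.58% in KO. Of 22 tested, 5 were positive and 12 negative. Wdr43 and the GTPase gene Gnl2 (4, 2 and 5 counts against 0 and 0) lay lower in every KO library. Nol8, for a nucleolar RNA-binding protein, lay higher at 2, 0 and 13 against 8 and 7. These were 2 and 1 of 22, beside 3.72% and 7.44% of all protein-coding genes tested. Nop58, a core protein of box C/D snoRNPs, had 4, 2 and 118 counts in Het and 13 and 2 in KO. Ribosomal protein mRNAs had 52 counts in Het and 34 in KO. Rpl4, of the large subunit, took 0.567%, 0.121% and 0.154% in Het and 0.371% and 1.59% in KO, with overlap.

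Chromatin remodellers took 4.06%, 3.51% and 4.56% in Het and 5.19% and 3.88% in KO. Smarca4, the ATPase of BAF complexes that is needed as a maternal product for the first activation of the embryonic genome, took 0.567%, 1.15% and 0.937% in Het and 0.309% and 0.0881% in KO. Its libraries did not overlap, the log2 fold change was -2.45 (SE 1.33, edgeR adjusted p = 0.837), and no library dominated the Het shares. The counts behind them were few, 6, 19 and 73 in Het and 5 and 1 in KO. The alternative ATPase Smarca2 overlapped, at 0.850%, 0.484% and 0.0770% against 0.679% and 1.15%. Cecr2, a bromodomain partner of ISWI, lay higher in every KO library with 2, 0 and 33 counts against 16 and 6. Of 21 members tested, 1 thus lay lower and 1 higher, beside 3.72% and 7.44% of all protein-coding genes tested. Atrx and Chd4, at 0.755%, 0.605% and 1.15% against 1.17% and 0.705%, and at 0.283%, 0.242% and 0.950% against 0.124% and 0.793%, overlapped.

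Splicing and nuclear RNA-binding genes took 7.08%, 7.62% and 6.39% in Het and 8.77% and 5.37% in KO. Of 44 tested, 14 were positive and 22 negative. Sltm and Matr3 lay higher in every KO library, 2 of 44 beside 7.44% of all protein-coding genes tested. Histone variants and chaperones took 0.850%, 2.90% and 3.76% in Het and 2.29% and 3.70% in KO. Genes of maternal mRNA storage and decay took 1.98%, 0.605% and 3.08% against 1.05% and 1.94%. In that list, by shares as counted, Tut7 lay lower and Cnot1, the scaffold of the CCR4-NOT deadenylase, higher, with 0 counts in Het and 5 and 1 in KO. The Tut7 shares in Het replicates 2 and 3 lay below what 0 counts allow in either KO library. The Cnot1 share in KO replicate 2 lay below what 0 counts allow in Het replicate 1. Tut7 and Cnot1 were 1 and 1 of 11 tested, beside 3.72% and 7.44% of all protein-coding genes tested. Chaperones and stress genes took 0.378%, 0.0605% and 0.937% against 0.309% and 0.352%, and ubiquitin and proteasome genes 0.0944%, 0.484% and 0.950% against 0.432% and 0.352%. Subunits of oxidative phosphorylation had 3 counts in all. None of these 6 groups of genes separated the genotypes by its summed share.

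**Figure D4:**
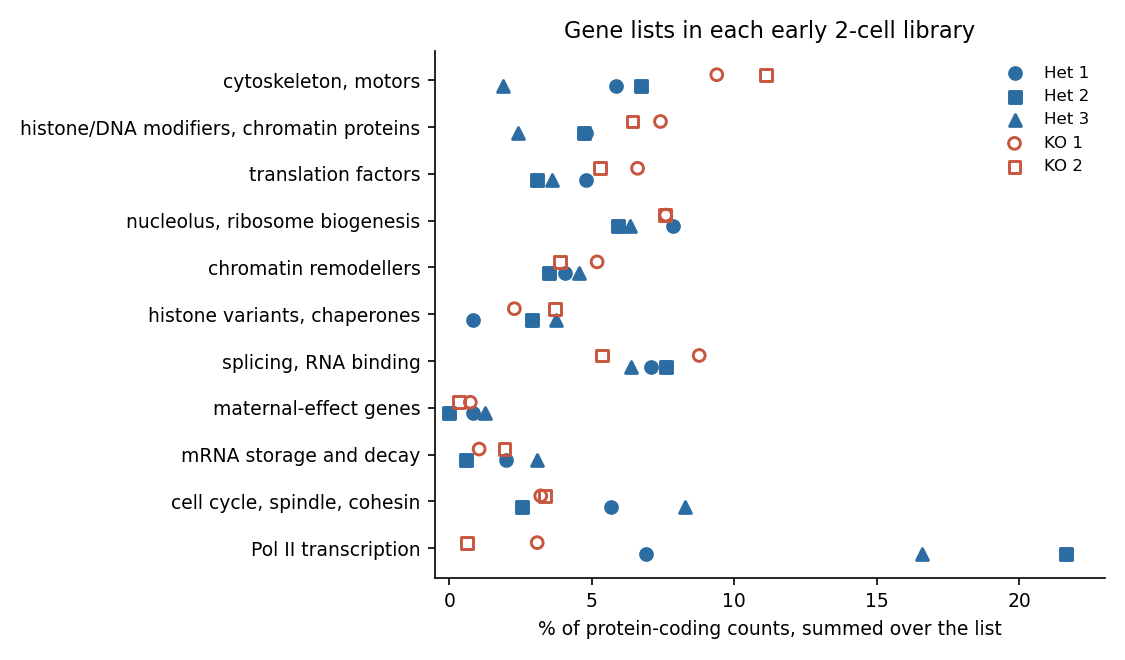
Summed share of protein-coding counts (x axis, %) of the 11 gene lists with at least 100 counts over the 5 libraries, 1 point for each library, filled blue for Het and open red for KO. Cytoskeletal genes lie at 1.87% to 6.72% in Het and 9.39% to 11.1% in KO, and the Pol II list lies lower in KO through Cdk11b.

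The early 2-cell libraries differed in how their counts were spread over genes. The 10 most counted genes of a library took 31.6%, 40.5% and 34.1% of the protein-coding counts in Het and 21.4% and 28.1% in KO, or 35.4 ± 4.60% against 24.7 ± 4.76% (SD, n = 3 and n = 2). The groups did not overlap. An exact permutation test with 10 arrangements gave p = 0.1, the smallest value possible, and 0.3 after adjustment over the 3 measures of this kind. Without Cdk11b the shares were 29.0%, 26.5% and 23.2% against 21.4% and 28.1%, and they overlapped (exact permutation p = 0.6). The number of protein-coding genes expected when each library is thinned to 1059 counts was 318, 277 and 267 in Het and 324 and 359 in KO (exact permutation p = 0.2, 0.3 after adjustment). Without Cdk11b, at 996 counts, it was 317, 305 and 281 against 314 and 346, and the groups overlapped (exact permutation p = 0.3). The protein-coding share of all counts was 0.696%, 1.77% and 4.56% in Het and 1.72% and 1.18% in KO (exact permutation p = 0.7).

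**Figure D5:**
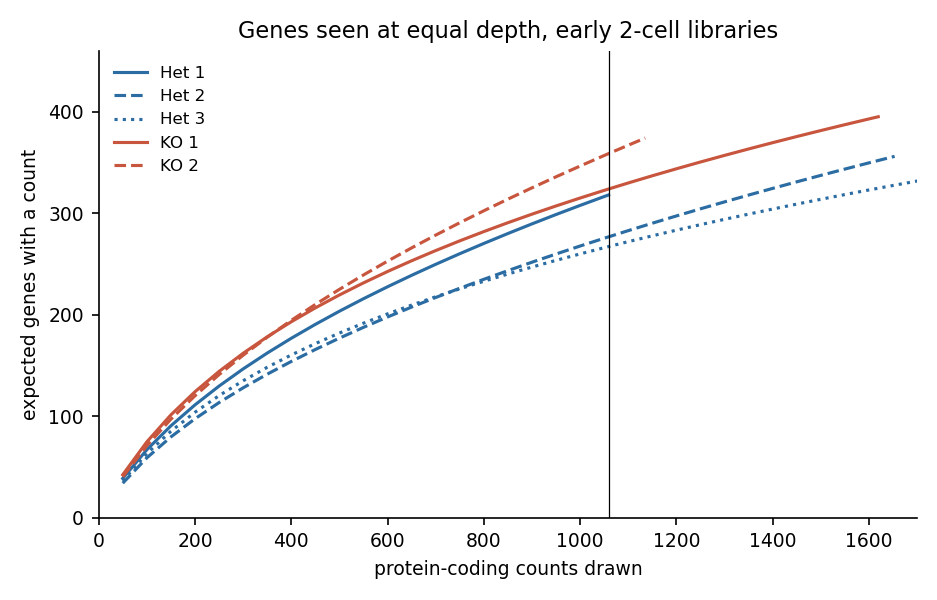
Expected number of protein-coding genes with a count (y axis) when a given number of protein-coding counts is drawn from each early 2-cell library (x axis), blue for Het and red for KO. At 1059 counts, the vertical line, the Het libraries give 267 to 318 genes and the KO libraries 324 and 359, and without Cdk11b the genotypes overlap.

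Pairs of libraries within and between genotypes were alike to overlapping degrees. As a measure of likeness, the smaller of a gene's shares in a pair of libraries was summed over genes. It was 29.9% to 38.3% within Het, 36.1% between the KO libraries and 23.5% to 40.6% between genotypes. Without Cdk11b the pairs that held Het replicate 3 reached 25.7% to 28.2% and the other pairs 33.0% to 42.0%. Het replicate 3 also held 23 genes with at least 20 counts and none in the other 4 libraries, 11.05% of its protein-coding counts. They were led by Chaf1a, of the chromatin assembly factor CAF-1, with 107 counts and the splicing factor gene Sf1 with 71. In KO replicate 1 and Het replicate 2 there was 1 such gene each, Eif3a and Hmx2. The cut of 20 counts favours Het replicate 3, the deepest library. There 20 counts are 0.257%, below the 0.283% that 0 counts allow in Het replicate 1, while the 21 counts of Hmx2 are 1.27% of Het replicate 2.

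The KO effect at the early 2-cell stage was also set against that of the earlier stages in the same fit. Against PN5 zygotes 0 of 533 genes (0%) passed, the smallest adjusted p was 0.739 by edgeR, and 21 (3.94%) were higher and 12 (2.25%) lower at an unadjusted p under 0.05, together 6.19%. Against M2 eggs 0 genes passed, with 9 (1.69%) in each direction at that threshold, together 3.38%. Without the low-count filter edgeR called Cdk11b and the corepressor gene Ncor1 against zygotes. Septin7, at 0 in early 2-cell KO, had mean shares of 0.162% and 0.209% in Het and KO eggs and of 0.20% and 0.145% in Het and KO zygotes, and its differences between stages did not pass (edgeR adjusted p = 0.739 against zygotes and 1 against eggs). Smarca4 had mean shares of 0.211% and 0.0418% in Het and KO eggs and of 0.0797% and 0.0804% in Het and KO zygotes. Its difference was -2.49 against zygotes and 0.08 against eggs (edgeR adjusted p = 0.905 and 1).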

How the data were processed

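Ribosome-protected fragments were made, per the labels' protocols, from about 100 early 2-cell embryos a library (about 200 eggs or zygotes), with RNase I (100 units, 45 min), immunoprecipitation of the HA tag (4 h) and 22 PCR cycles. Per the submitters' processing notes the authors used cutadapt, STAR 2.7.6a, StringTie 2.1.4, deepTools 3.5.1 and GRCm38. The authors deposited 1 table of whole-number estimated counts by gene. How reads became those expected counts, and how shared reads and strand were treated, is not stated in the sources.

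Of 55490 genes and RNA entries in the table, 40 ribosomal and mitochondrial ones were dropped. RefSeq GRCm38.p6 gave biotypes and coordinates for 39101 by current and 117 by older symbol, and 16272 had none. Tests used edgeR 4.0.16 (TMM factors, filterByExpr with a minimum count of 10, quasi-likelihood fit with robust shrinkage, prior count 0.125) on all 15 libraries as 6 groups with 9 residual degrees of freedom. The threshold was 0.05 on p-values adjusted by Benjamini-Hochberg over 533 genes. SEs were derived from each fold change and its p. Exact permutation tests were two-sided. The fit was tested on simulated data first. DESeq2 1.42.0 and limma 3.58.1 were alternatives, with other scalings, filters, samples and each library left out. Library totals ran from 93222 to 170753 at the early 2-cell stage.

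Genes were named by a rule: Eif4e1b and Rpl22, the 12 with the highest mean share, the 10 with the smallest p in each direction, and up to 3 members of each list by counts. The members, rule and lists were chosen with earlier results of these data known.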

Additional observations from a re-analysis of the deposited data

Results flagged for a closer look

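An entry outside the protein-coding genes, CT010467.1 (ENSMUSG00000106106), which had no match in the RefSeq table, held many counts in every early 2-cell library. It had 871, 419 and 680 counts in Het replicates 1 to 3 and 962 and 112 in KO replicates 1 and 2, against the limit of 3 counts that a 0 allows. Of the counts left after dropping ribosomal and mitochondrial entries these were 32.1%, 15.2%, 7.08%, 27.9% and 6.198%. The KO libraries spanned nearly the whole range of the Het libraries. Groups of 2 or 3 libraries were not tested for single libraries that stand apart, and no difference between stages in the KO effect passed the test.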

How the results depend on the processing

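For KO against Het, 0 genes were called by edgeR and under the alternatives, except 3 by DESeq2, 1 without the low-count filter and 1 on the early 2-cell libraries alone, and 0 to 1 when single libraries were left out. For the difference from zygotes the exceptions were 2 genes without the low-count filter and 0 to 1 with libraries left out. Of 436 log2 fold changes of 31 genes under alternatives, 411 kept direction and side of the threshold, 21 reversed and 4 passed the threshold, and 23 genes never reversed. Those that passed were Cdk11b at -10.73 (DESeq2), -12.58 (no filter) and -11.73 (early 2-cell only) and Hmgn5 at 3.53 (DESeq2). Under DESeq2, DESeq2 size factors, a filter of 10 counts in early 2-cell libraries and early 2-cell libraries alone, Eif5b turned to -0.070, -0.070, -0.026 and -0.056 and Cntln to -0.21, -0.18, -0.14 and -0.34. With libraries left out, log2 fold changes ran from -0.32 to 0.72 for Ncl, -0.0066 to 0.31 for Eif5b, -0.35 to 0.66 for Cntln, -1.65 to 1.04 for Rbm25, -1.91 to 0.39 for Ythdc1, -8.50 to 9.38 for Anp32b and -4.18 to 8.78 for Luc7l3. The log2 ratio of the protein-coding share ran from -1.0 to 0.36. The cause of these turns was not tested. Same-numbered Het and KO libraries had correlations of deviations of -0.0241 and 0.00161 at the early 2-cell stage, so the numbers were not shown to pair them. With the replicate block 0 genes were called, and Atad2, Rbm25 and Ythdc1 turned to 0.18, 0.84 and 0.48. The median log2 fold change was 0, but 0.54 by limma-voom and -1.52 with the filter of 10 counts in early 2-cell libraries. The planned description of protein sequences was not run. Between 1059 and 7793 protein-coding counts a library limit every value.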
